A study of Mus musculus with 7 samples.

Results

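The Zbtb genes encode transcription factors that join an N-terminal BTB (POZ) domain to C2H2 zinc fingers. The set was taken as every protein-coding gene whose symbol is Zbtb followed by digits and an optional letter in the RefSeq table of GRCm38.p6, which gave 40 of 21887 protein-coding genes on chromosomes 1 to 19, X and Y. Open chromatin at these genes was read by ATAC-seq, where sequencing adapters are put into accessible DNA by a transposase. The samples were neural progenitors of the E14.5 dorsal telencephalon (CD-1 mice), sorted for CD15, a surface carbohydrate of neural stem and progenitor cells. E14.5 stands in the sample titles, while the age label of all 7 samples gives embryonic day 14. The libraries came from 4 L3mbtl3 -/- samples, called knockout here, and 3 wild-type samples. L3mbtl3 encodes an MBT-domain chromatin protein that the series title links to the Polycomb complex PRC1. The labels do not say how the null allele was made, how many embryos entered a library or which sex they had, so that the spread between libraries may be biological or technical.

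In BTB zinc-finger proteins the BTB domain pairs the proteins and recruits corepressor complexes, and the zinc fingers choose the DNA site. Many members repress transcription and act as switches of cell fate. In the embryonic cortex, Zbtb18 (RP58) is required for the progress of neurons from progenitors and for their migration, Zbtb20 shapes hippocampal and upper-layer cortical neurons and astrocytes, and Zbtb16 (PLZF) acts in neural progenitors. Other members are better known from blood, such as Zbtb7b (ThPOK), which directs T cells to the CD4 lineage.

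Each library came as 1 list of broad peaks, with 9827, 7111, 3366 and 17362 peaks in knockout libraries 1 to 4, against 7448, 11394 and 6458 in wild-type libraries 1 to 3. Read depths are unknown, so list lengths serve as the only gauge of how much each library called. The ends of L3mbtl3 itself lay more than 1 kb from any peak in all 7 libraries, and the gene therefore gave no check of the genotype. Of 12 dorsal progenitor marker genes, 6 had such an end peak in at least 1 library, beside 23.6% of all protein-coding genes, while none of 4 microglial and blood and none of 4 endothelial markers had one. Of 7 ventral telencephalon markers 1 was called, Gad2 in 2 of 4 knockout and 2 of 3 wild-type libraries, and of 4 meningeal markers 1 was called, Dcn in 2 of 4 knockout and 0 of 3 wild-type libraries. Of the 6 called dorsal progenitor markers, 5 had the larger share of calls in knockout and 1, Slc1a3, in wild-type. Per library, 16.7% ± 9.62 of the 12 were called in knockout and 5.56% ± 9.62 in wild-type (SD, n = 4 and 3), and the ranges overlapped. Over all protein-coding genes the shares were 9.11% per knockout and 8.39% per wild-type library. The wild-type share of these markers was thus below that of all genes. None of the 12 was called in 4 or more libraries, while Gad2 was. The 6 dorsal progenitor markers without an end peak in any library were Pax6, Emx1, Nes, Vim, Hes1 and Sox9. Of 7 excitatory neuron markers 2 were called, Dcx and Tubb3, each in 1 of 4 knockout and 0 of 3 wild-type libraries. Whether other cell types had a part in the values below was not tested.

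Promoter sequences are shown for 4 members with a window under peaks of at least 2 libraries. Of these, Zbtb11 had no end peak in any library. They are RefSeq windows of GRCm38.p6 from 250 bases before to 50 bases after a transcript start, read 5′ to 3′ on the strand of the gene. Zbtb5 is at chr4:45012363-45012662 on the minus strand, Zbtb3 at chr19:8802263-8802562 on the plus strand, Zbtb11 at chr16:55973554-55973853 on the plus strand and Zbtb45 at chr7:13009803-13010102 on the minus strand. Of the windows of all members, these 4 and a second, overlapping window of Zbtb3 were the ones that peaks of at least 2 libraries overlapped. Capitals mark the bases that lay under peaks of at least 2 libraries.
Zbtb5: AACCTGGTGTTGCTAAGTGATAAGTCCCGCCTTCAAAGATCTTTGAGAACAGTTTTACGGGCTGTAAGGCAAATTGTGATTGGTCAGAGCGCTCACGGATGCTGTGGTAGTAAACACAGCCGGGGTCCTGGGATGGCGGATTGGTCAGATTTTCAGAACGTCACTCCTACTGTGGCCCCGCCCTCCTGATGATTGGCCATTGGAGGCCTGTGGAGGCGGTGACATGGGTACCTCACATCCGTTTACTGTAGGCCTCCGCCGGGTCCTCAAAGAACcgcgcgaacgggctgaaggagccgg
Zbtb3: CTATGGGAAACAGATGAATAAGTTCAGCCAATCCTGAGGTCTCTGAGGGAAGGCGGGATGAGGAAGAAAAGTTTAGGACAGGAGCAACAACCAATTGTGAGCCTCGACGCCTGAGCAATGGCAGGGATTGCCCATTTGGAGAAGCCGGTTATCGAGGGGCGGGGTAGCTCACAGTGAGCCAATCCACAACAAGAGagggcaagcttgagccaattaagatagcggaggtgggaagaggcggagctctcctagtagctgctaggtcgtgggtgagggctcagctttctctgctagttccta
Zbtb11: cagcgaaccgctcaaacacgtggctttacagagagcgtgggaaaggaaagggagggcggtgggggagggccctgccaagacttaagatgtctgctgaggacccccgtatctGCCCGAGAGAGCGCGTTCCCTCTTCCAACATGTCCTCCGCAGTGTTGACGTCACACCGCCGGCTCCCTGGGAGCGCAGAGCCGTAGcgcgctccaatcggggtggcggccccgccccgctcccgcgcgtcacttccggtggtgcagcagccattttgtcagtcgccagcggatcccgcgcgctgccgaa
Zbtb45: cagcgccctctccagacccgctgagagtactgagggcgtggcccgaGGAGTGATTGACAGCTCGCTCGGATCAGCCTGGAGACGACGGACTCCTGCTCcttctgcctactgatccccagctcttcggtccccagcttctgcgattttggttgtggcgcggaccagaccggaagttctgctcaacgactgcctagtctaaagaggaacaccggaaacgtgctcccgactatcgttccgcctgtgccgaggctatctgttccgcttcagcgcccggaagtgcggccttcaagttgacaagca

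For contrast, the window at the most upstream listed start of Zbtb18, chr1:177442101-177442400 on the plus strand, lay partly under a peak of knockout library 4 only. The window at the listed start of Zbtb20, chr16:43247034-43247333 on the plus strand, lay under no peak. Neither window therefore carries capitals. The listed start of Zbtb20 lies inside the gene, away from the end that was called in all 7 libraries.
Zbtb18: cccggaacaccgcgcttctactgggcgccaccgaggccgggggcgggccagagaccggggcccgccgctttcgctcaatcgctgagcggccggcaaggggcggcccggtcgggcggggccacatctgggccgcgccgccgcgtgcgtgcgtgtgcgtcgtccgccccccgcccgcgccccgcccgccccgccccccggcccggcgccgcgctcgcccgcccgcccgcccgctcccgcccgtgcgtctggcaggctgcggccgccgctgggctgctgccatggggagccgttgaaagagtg
Zbtb20: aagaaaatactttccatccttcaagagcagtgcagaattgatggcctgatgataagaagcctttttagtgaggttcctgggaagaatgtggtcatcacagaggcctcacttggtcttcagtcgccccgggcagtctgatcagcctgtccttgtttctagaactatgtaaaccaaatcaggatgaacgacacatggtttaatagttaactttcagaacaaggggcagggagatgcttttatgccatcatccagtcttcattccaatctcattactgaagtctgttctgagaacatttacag

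A listed start was found for 35 of the 40 members, all but Zbtb7c, Zbtb10, Zbtb16, Zbtb40 and Zbtb48. Their most upstream windows had a median GC content of 66% and a median of 26 CpG dinucleotides, beside 56.3% and 13 over the 17492 protein-coding genes with a window. The Zbtb18 window stood at 81.7% GC with 51 CpG and the Zbtb20 window at 43.3% with 3. Peaks overlapped the window of 9 of the 35 members (25.7%), beside 20.7% of all genes, and the median CpG number was 31 in those 9 and 25.5 in the other 26. Median GC content ran the other way, at 62.7% in the 9 and 67.5% in the 26. Over all genes, windows under a peak had medians of 21 CpG and 60.3% GC, and windows under none had 9 CpG and 54.7% GC.

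Short motifs were searched on either strand of these windows as a description of their letters. The GC box GGGCGG was in 68.6% of member windows, beside 46.3% of all windows, and the Ets core CCGGAA in 40%, beside 19.1%. The E-box CANNTG, which includes CAGCTG and CAGATG, was in 45.7%, beside 68.8%. CAGCTG alone was in 5.71%, beside 15.1%, and CAGATG in 11.4%, beside 14.9%. The Nrf1 palindrome was in 5.71%, beside 1.33%, the Kaiso site TCCTGCNA in 2.86%, beside 4.69%, and the TATA box TATAAA in 2.86%, beside 13.3%. Member windows were thus richer in GC-box and Ets letters and poorer in E-box and TATA letters than windows at large, as they were richer in CpG.

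In the windows printed above, the Zbtb45 window held 3 Ets cores and no E-box, and all 3 lay outside the bases called in both of its libraries. Those bases were only 52 of the 300. The CCAAT box, searched only after the sequences had been seen, occurred 4 times in the Zbtb5 window and 4 times in the Zbtb3 window. All 4 matches of Zbtb5 and 3 of the 4 of Zbtb3 lay in the capitals. The capitals take up 275 of the 300 bases at Zbtb5 and 195 of the 300 at Zbtb3, so these counts do not tie CCAAT to them. CCAAT as such was no commoner in member windows, at 37.1%, beside 39.2% of all windows. At least 3 matches were found in 4 of the 35 member windows, those of Zbtb3, Zbtb5, Zbtb9 and Zbtb32, beside 4.21% of all windows. The windows of Zbtb3 and Zbtb5 had been seen before this motif was chosen, so the count is no separate evidence.

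The first question was which members had open chromatin at an end of the gene, taken as a peak no more than 1 kb away from one or the other end of the RefSeq span. Of the 40 members, 12 were called in at least 1 library, beside 23.6% of all protein-coding genes. In at least 4 libraries 3 were called, beside 6.52% of all genes, and in all 7 libraries 1 was called, beside 1.13%. The other 28 had no end peak in any library. Of the 40, 7 were called in a single library, beside 9.86% of all genes. All 7 single calls were in a knockout library, beside 7.29% of all genes with a single call there, and 4 of them in knockout library 4. Of the 2159 genes called once, 1596 (73.9%) were called in a knockout library and 1317 (61.0%) in knockout library 4.

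Among members with roles in neural development, Zbtb20 was the one member of the family with an end peak in every library. Its peaks merged into a region at chr16:42875139-42875828 that overlaps the lower end of the span, and 186 bases of it were shared by the peaks of all 7 libraries. The gene is on the plus strand, so this is its upstream end, while the start in the promoter table lies inside the span. The authors' fold enrichment of this peak was 7.02, 6.15, 5.38 and 6.88 in knockout libraries 1 to 4, and 5.73, 5.96 and 5.77 in wild-type libraries 1 to 3. Ranked by −log10 q within each list, the peak stood at percentiles of 97.4, 92.5, 78.7 and 98.8 in knockout and 91.6, 93.9 and 91.0 in wild-type libraries. It was therefore among the stronger peaks of each list, least so in knockout library 3, which has the shortest list.

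Zbtb45, which has been tied to glial differentiation of neural progenitors in mouse, had an end peak in knockout libraries 3 and 4 and in no wild-type library. These peaks were weak, at percentiles of 16.7 and 5.54 of their lists. Zbtb18 had an end peak in 1 of 4 knockout libraries, library 4, and in 0 of 3 wild-type libraries, and Zbtb16 had none in any. The list of 4 neural members thus had 3 called members, with shares of 43.8% ± 23.9 per knockout library (SD, n = 4) and of 25% in every wild-type library. These 4 genes were chosen with earlier results known, and the shares over all genes were 9.11% per knockout and 8.39% per wild-type library. Knockout library 4 called 3 of the 4, and without it the knockout mean was 33.3% ± 14.4 (SD, n = 3), which brings the difference to 8.33 percentage points in place of 18.8.

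Zbtb5, which has been described in human cells as a repressor of the cell-cycle inhibitor p21 downstream of p53, was called at an end in 5 libraries. The fold was 5.18, 3.67 and 5.01 in knockout libraries 1, 3 and 4, and 5.0 and 5.41 in wild-type libraries 1 and 2. Knockout library 2 and wild-type library 3 had no peak there, so the calls did not follow genotype. The peaks shared 92 bases of the region at chr4:45012373-45012821. Zbtb2, its partner in the list of p53 and cell-cycle factors, had no peak even within 50 kb.

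Zbtb3 was called at an end in knockout libraries 3 and 4 and in wild-type libraries 1 and 2. The region, chr19:8802224-8802526, had only 5 bases in common among the 4 peaks, and their percentiles ran from 9.75 in wild-type library 1 to 44.0 in knockout library 4. These are weaker and less aligned calls than those at Zbtb5. Zbtb11 is not among the 12, because its listed start lies inside the span, beyond the 1 kb window. A peak over that start was called in 1 of 4 knockout libraries, library 4, and in 2 of 3 wild-type libraries, libraries 1 and 3.

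Among the factors that bind methylated DNA, Zbtb33 (Kaiso), on chromosome X, was called at an end in knockout library 4 only, at the 1.36 percentile of that list, and Zbtb4 and Zbtb38 were called in none. Among the genes listed for genome and telomere maintenance, Zbtb48 (TZAP), which binds and trims long telomeres, was called in 1 of 4 knockout and 1 of 3 wild-type libraries. That region also lies at an end of the taste receptor gene Tas1r1, so the peak cannot be given to either gene. Zbtb10 was called in knockout library 4 only, and Zbtb40 and Zbtb43 in none. None of the 8 members with roles in blood and immune lineages, Zbtb1, Zbtb7a, Zbtb7b, Zbtb17, Zbtb24, Zbtb25, Zbtb32 and Zbtb46, had an end peak in any library, beside 23.6% of all genes with one. A list of 8 genes is too short to set this apart from that share. Of the 19 members in no role list, 5 were called, beside the same 23.6%. These were Zbtb3 as above and Zbtb21, Zbtb22, Zbtb37 and Zbtb41 in 1 knockout library each. The Zbtb22 peak also lies at an end of Daxx, a histone chaperone gene.

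**Figure D1:**
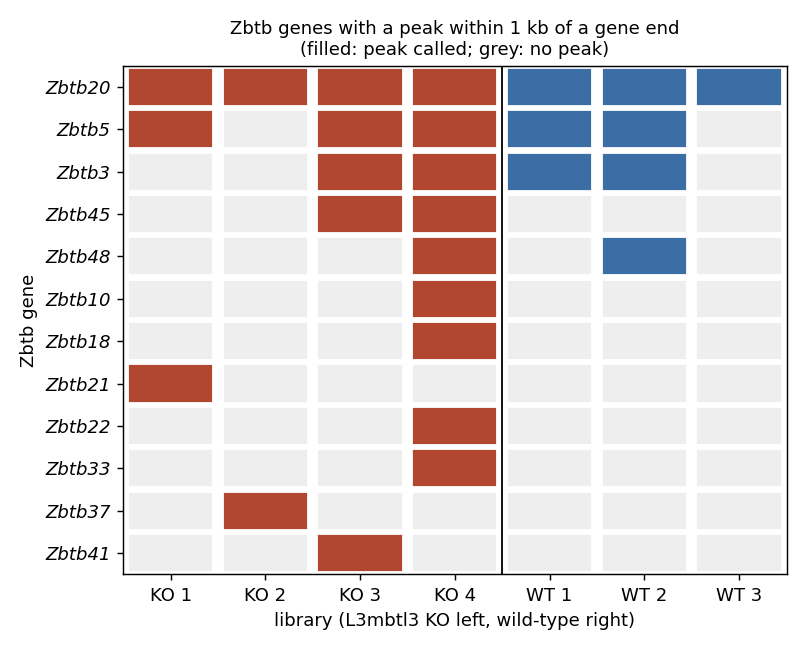
End calls of the 12 Zbtb genes with a peak within 1 kb of a gene end, by library (columns: 4 knockout libraries on the left, 3 wild-type libraries on the right; filled cells: peak called). Zbtb20 is filled in all 7 libraries, Zbtb5 in 5 and Zbtb3 in 4, and the 7 genes called once are filled in a knockout library.

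The number of members with an end peak was 3, 2, 5 and 9 in knockout libraries 1 to 4, against 3, 4 and 1 in wild-type libraries 1 to 3. The means were 4.75 ± 3.10 in knockout (SD, n = 4) and 2.67 ± 1.53 in wild-type libraries (SD, n = 3), and the ranges overlapped. Expressed as shares, 11.9% ± 7.74 of members were called per knockout library and 6.67% ± 3.82 per wild-type library, beside 9.11% ± 6.30 of all protein-coding genes per knockout library and 8.39% ± 2.41 per wild-type library (SD, n = 4 and 3). Knockout library 4, with the longest list, called 22.5% of members and 18% of all genes. Knockout library 3, with the shortest list, called 12.5% of members and 3.55% of all genes, and wild-type library 3 called 2.5% and 6.63%. The difference of the means was 2.08 genes with all libraries, 0.667 without knockout library 4, 1.25 without wild-type library 3 and 0.333 with every list limited to its 3366 strongest peaks by −log10 q. It was larger, at 3, without knockout library 2, at 2.75 without wild-type library 2 and at 3.17 with a window of 2.5 kb.

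**Figure D2:**
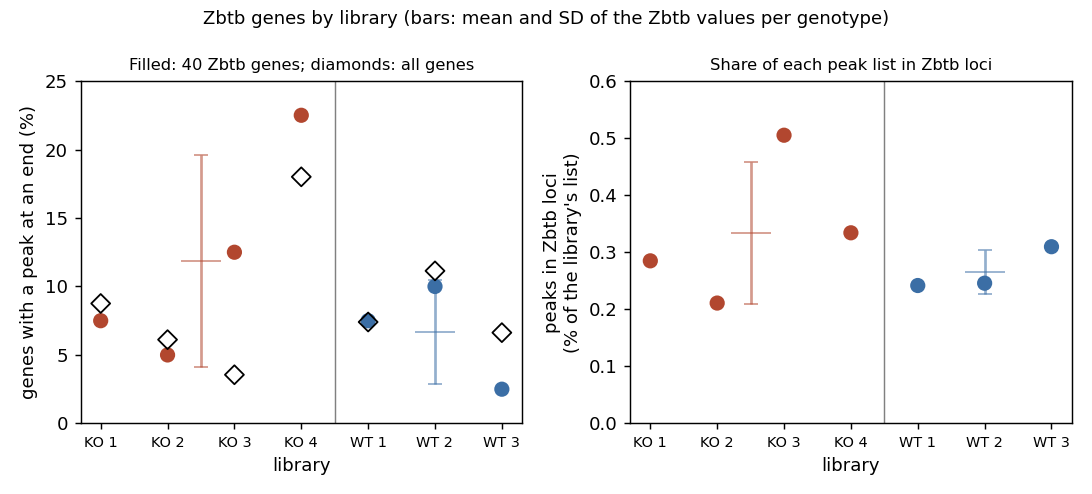
Left: share of genes with an end peak in each library (%), for the 40 Zbtb genes (filled points) and all protein-coding genes (diamonds); right: share of each peak list that lies in Zbtb loci (%). Bars give the mean and SD of the Zbtb values in the 4 knockout and 3 wild-type libraries, whose ranges overlap in both panels.

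Compared gene by gene, the share of libraries with an end call was larger in knockout for 9 members, beside 12.4% of all genes, and larger in wild-type for 2, Zbtb3 and Zbtb48, beside 10.1%. Zbtb20 was called equally. Of the 9, 4 were called by knockout library 4 alone, namely Zbtb10, Zbtb18, Zbtb22 and Zbtb33. End calls separated the genotypes fully at 0 members. Of all genes, 0.0274% showed such a separation with the calls in knockout, and 0.0183% with the calls in wild-type. In Fisher's exact test over the 21887 genes 0 genes passed the Benjamini-Hochberg adjustment, and 10 genes, none of them a member, had an unadjusted p under 0.05. The smallest p that 4 against 3 libraries allow is 0.0286. At that p a gene could pass only if a large part of all genes reached it. The 0 was therefore set by the number of libraries and is no sign of equal calling. The same holds for the tests of loci and regions below.

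The 1 kb limit bears on a few members. Among called members, the peak of Zbtb10 lay 552 bases outside the span, while at Zbtb41 the peaks at the end of Aspm lay 1628 bases outside it and were not counted.

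The second question was which peaks lay in the surrounding locus, taken as the span with 50 kb added at each end. Of the 40 members, 33 had at least 1 locus peak in at least 1 library, beside 69.2% of all genes, and 2, Zbtb20 and Zbtb45, had one in all 7 libraries, beside 6.90%. Zbtb2, Zbtb17, Zbtb34, Zbtb39, Zbtb40, Zbtb43 and Zbtb49 had no locus peak in any library. Averaged over libraries, the median was 0.429 peaks per member, beside 0.286 per protein-coding gene. Member spans had a median of 19.7 kb, beside 17.2 kb, and the median peak density of a locus was 0.365 peaks per 100 kb and library for members, beside 0.209 for all genes.

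Zbtb loci held 28, 15, 17 and 58 peaks in knockout libraries 1 to 4, against 18, 28 and 20 in wild-type libraries 1 to 3, each peak counted once. As a share of the list, this was 0.285%, 0.211%, 0.505% and 0.334% in knockout, against 0.242%, 0.246% and 0.310% in wild-type libraries. The share in knockout library 3 was the highest and that in knockout library 2 the lowest, so that the wild-type values lay inside the knockout range. The means were 0.334% ± 0.125 in knockout (SD, n = 4) and 0.266% ± 0.0382 in wild-type libraries (SD, n = 3). The difference in peak number was 7.5 with all libraries and −2 when knockout library 4 was left out, 12.3 without knockout library 2 and 11.7 without knockout library 3. Lists of equal length gave 1.42. The shares differed by 0.0680 percentage points with all libraries, by 0.0109 points when knockout library 3 was left out and by 0.109 points without knockout library 2. With peaks limited to a −log10 q of at least 5 the difference in share was −0.0712 points.

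**Figure D3:**
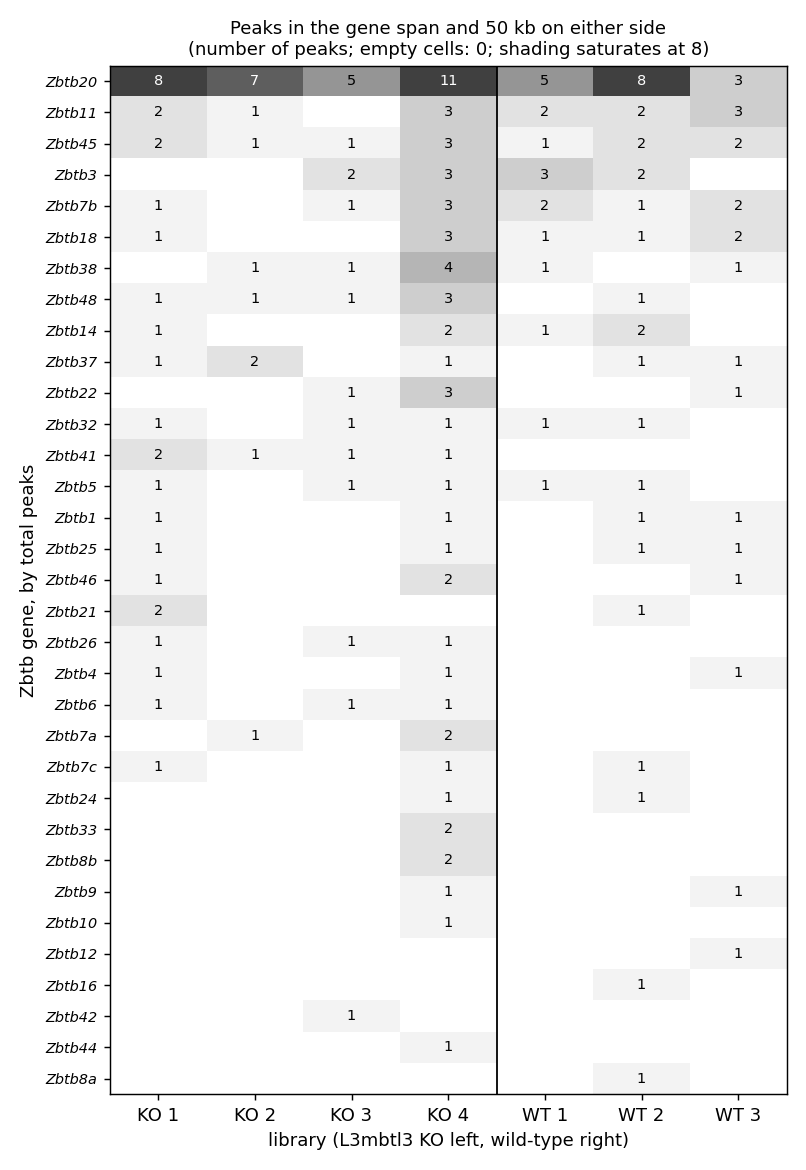
Number of peaks in the span and 50 kb on either side of each of the 33 Zbtb genes with any such peak, by library (4 knockout libraries left, 3 wild-type libraries right; genes from most to fewest peaks). Zbtb20 holds 3 to 11 peaks per library, and no other member holds more than 4 in any library.

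Zbtb20 accounted for 47 of the 184 peaks in Zbtb loci. The loci of Zbtb1 and Zbtb25 share peaks, as do those of Zbtb6 and Zbtb26, and the 184 count each shared peak once. With its flanks the gene covers 859 kb, and among the 227 protein-coding genes with spans of at least 500 kb it ranked 28th by peaks per 100 kb, at 0.782 per library, where the median of these long genes was 0.423. Zbtb20 held 8, 7, 5 and 11 locus peaks in knockout libraries 1 to 4, against 5, 8 and 3 in wild-type libraries 1 to 3. The means were 7.75 ± 2.5 in knockout and 5.33 ± 2.52 in wild-type libraries (SD, n = 4 and 3), and the groups overlapped (difference 2.42 peaks, two-sided exact permutation p = 0.286 over 35 splits, the smallest possible p being 0.0286). As a share of the list, Zbtb20 took 0.0979% ± 0.0367 in knockout and 0.0613% ± 0.0129 in wild-type libraries (SD, n = 4 and 3, exact permutation p = 0.20). The shares were 0.0814%, 0.0984%, 0.149% and 0.0634% in knockout libraries 1 to 4, against 0.0671%, 0.0702% and 0.0465% in wild-type libraries 1 to 3. Knockout libraries 1 to 3 thus lay above every wild-type library and knockout library 4 within their range. Without knockout library 4 the difference was 0.0482 points and the exact permutation p was 0.10, the smallest that 3 against 3 libraries allow. That p was forced by leaving out the knockout library inside the wild-type range. Leaving out any other single library gave an exact permutation p from 0.267 to 0.467. The share of the list was taken up as a measure after seeing the data. With a −log10 q of at least 5 the difference was 8.02e-05 points. The difference in peak number was 1.33 without knockout library 4, 1.25 without wild-type library 3 and 3.75 without wild-type library 2.

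The Zbtb20 peaks fell into 15 regions. Besides the region at the upstream end, a region inside the gene, chr16:43309822-43310448, 434 kb from that end, was called in all 7 libraries, with 87 bases shared by all peaks. Its percentiles were 67.3, 73.4, 28.8 and 59.0 in knockout libraries 1 to 4, and 3.06, 65.3 and 18.6 in wild-type libraries 1 to 3. A further region, chr16:43029198-43029498, 154 kb inside, was called in 4 of 4 knockout and 2 of 3 wild-type libraries and was missed in wild-type library 3. The regions at 411 kb and 659 kb were each called in 2 of 4 knockout and 2 of 3 wild-type libraries. Of the other 10 regions, 9 were called in at most 3 libraries, among them 5 in a single library.

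The remaining region, chr16:42921506-42921804, 46.0 kb inside Zbtb20, was called in 4 of 4 knockout and in 0 of 3 wild-type libraries, a pattern shown by 0.109% of all 25623 merged regions. The reverse pattern, 3 of 3 wild-type and 0 of 4 knockout, was shown by 0.133% of all regions and by none of the 81 in Zbtb loci. The fold was 4.09, 5.72, 4.90 and 6.22 in knockout libraries 1 to 4, and the percentiles within the lists were 10.7, 82.9, 70.3 and 91.6. The 4 peaks shared 68 of the 299 bases. Fisher's exact test gave p = 0.0286 and an adjusted p of 1 over all regions, where 62 regions had an unadjusted p under 0.05 and 0 passed. As with the genes, 62 regions at the smallest possible p were too few for any to pass. The separation was lost with equal lists of 3366 peaks, with a −log10 q of at least 5 and when a call required a peak over 50% or more of the region.

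**Figure D4:**
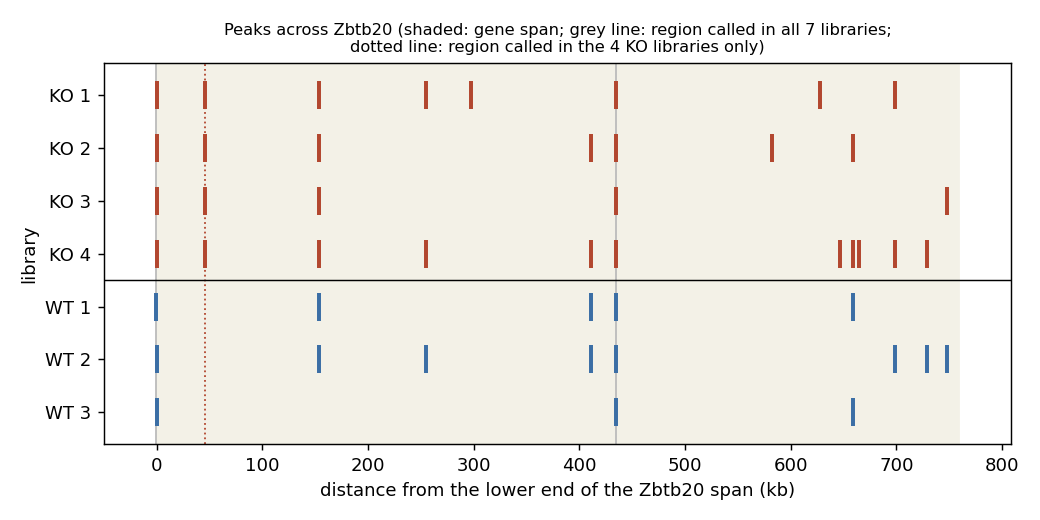
Peaks across Zbtb20 by library, at their distance from the lower, upstream end of the gene span in kb (shaded: span; 4 knockout libraries above, 3 wild-type libraries below). Grey lines mark the regions called in all 7 libraries, at the upstream end and at 434 kb, and the dotted line marks the region at 46.0 kb called in the 4 knockout libraries only.

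At Zbtb18 the locus held 1, 0, 0 and 3 peaks in knockout libraries 1 to 4, against 1, 1 and 2 in wild-type libraries 1 to 3. The means were 1 ± 1.41 in knockout and 1.33 ± 0.577 in wild-type libraries (SD, n = 4 and 3, exact permutation p = 0.771), a difference within the spread of either genotype. A single region was called in more than 1 library, chr1:177479338-177479620, 28574 bases beyond the downstream end of the gene and between genes. It was called in 2 of 4 knockout and 3 of 3 wild-type libraries. Its peaks shared 62 bases. The peak at the Zbtb18 start in knockout library 4 stood at the 24.6 percentile of that list.

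At Zbtb41, no single region was separated by genotype, but the locus as a whole was. It held 2, 1, 1 and 1 peaks in knockout libraries 1 to 4 and none in the 3 wild-type libraries, a pattern shown by 0.0822% of all loci, where 0.123% showed the reverse and 0 of 21887 loci passed the adjustment (Fisher's exact p = 0.0286, adjusted p = 1; 45 loci had an unadjusted p under 0.05). The knockout peaks lay in different places. Knockout libraries 1, 2 and 4 had a peak at chr1:139454635-139454766, at an end of the neighbouring gene Aspm, which encodes a spindle protein of dividing neural progenitors and is mutated in human microcephaly. Its percentiles were 85.2, 72.3 and 92.9. Knockout library 3 had its peak at the start of Zbtb41 instead, and knockout library 1 had a further peak inside Crb1. With a window of 2.5 kb in place of 1 kb, Zbtb41 was accordingly the 1 member called at an end in every knockout and no wild-type library.

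In the other loci with the most peaks, many peaks lay at or inside neighbouring genes. Which gene a peak belongs to was not tested. At Zbtb11, with 2, 1, 0 and 3 locus peaks in knockout libraries 1 to 4, against 2, 2 and 3 in wild-type libraries 1 to 3, the region called in 6 libraries, chr16:55934479-55934932, lies at an end of Cep97. At Zbtb45, with 2, 1, 1 and 3 locus peaks in knockout, against 1, 2 and 2 in wild-type libraries, the region called in 6 libraries, chr7:12977702-12978311, lies inside Zfp446, and a region called in 4 libraries lies at an end of Mzf1. At Zbtb7b, with 1, 0, 1 and 3 locus peaks in knockout, against 2, 1 and 2 in wild-type libraries, the region called in 6 libraries, chr3:89411886-89412081, lies at an end of Flad1. These 3 regions were called in 3 of 4 knockout and 3 of 3 wild-type libraries each, and the locus counts overlapped between genotypes. Zbtb3 had 0, 0, 2 and 3 locus peaks in knockout libraries 1 to 4, against 3, 2 and 0 in wild-type libraries 1 to 3.

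Zbtb38 had 0, 1, 1 and 4 locus peaks in knockout libraries 1 to 4, against 1, 0 and 1 in wild-type libraries 1 to 3, in 4 regions of which 3 lie between genes. Zbtb37 had 1, 2, 0 and 1 in knockout, against 0, 1 and 1 in wild-type libraries. Zbtb22 had 0, 0, 1 and 3 in knockout, against 0, 0 and 1 in wild-type libraries. In each of these the genotypes overlapped. Zbtb48 had 1, 1, 1 and 3 in knockout, against 0, 1 and 0 in wild-type libraries, which overlap at 1. One of its regions, chr4:151996261-151996416 at an end of Phf13, which encodes a reader of methylated histone H3, was called in knockout libraries 1, 3 and 4 and in no wild-type library (Fisher's exact p = 0.143, adjusted p = 1).

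In all, the 184 peaks formed 81 of the 25623 regions. Of these 81, 12 lay at a Zbtb gene end, 20 inside a Zbtb gene away from its ends, 28 at an end of another gene, 7 inside another gene and 14 between genes. Most of the 20 lay in the long gene Zbtb20. Regions at ends of both a Zbtb gene and another gene, those shared with Daxx and Tas1r1, were counted at the Zbtb gene. The same classes were not counted over all regions, so these numbers only describe the Zbtb loci. In at least 6 libraries 6 of the 81 were called, beside 11.0% of all regions, and in all 7 libraries 2 were called, beside 5.06%. Those called in at least 6 were 3 at Zbtb20 and 1 each at Zbtb7b, Zbtb11 and Zbtb45. In a single library 40 were called, beside 48.4%, and 20 of the 81 were called in knockout library 4 only, beside 25.3%.

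**Figure D5:**
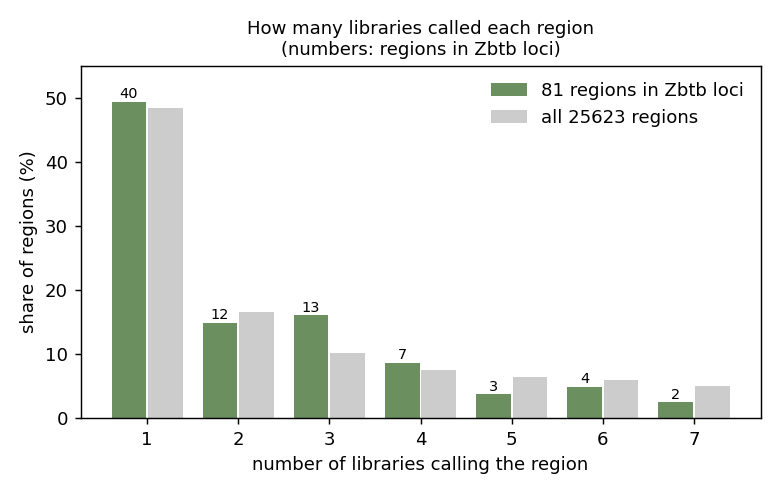
Share of regions (%) by the number of libraries that called them, for the 81 regions in Zbtb loci (green, with the number of regions) and all 25623 regions (grey). Of the Zbtb regions 40 were called in 1 library and 2 in all 7.

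Between genotypes, the calling share was larger in knockout at 50 of the 81 regions, beside 54.5% of all regions, and larger in wild-type at 29, beside 40.4%. At least 2 knockout and no wild-type library called 6 of the 81, beside 5.88% of all regions. At least 2 wild-type and no knockout library called 0 of the 81, beside 1.51%. The median of knockout minus wild-type calling share was 16.7 percentage points, for the 81 and for all regions. As shares of the 81, the 50 and 29 regions were 61.7% and 35.8%. Over all regions the larger share was likewise more often in knockout. Knockout has 1 library more and the longest list, and the part of either in these shares was not tested.

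Related genes were set beside the family and beside the 23.6% of all genes called at an end in at least 1 library. Of 8 BTB zinc-finger genes with other names, 2 had an end peak in any library, Bcl6, the germinal-centre repressor, in 2 of 4 knockout and 1 of 3 wild-type libraries and Mynn in 1 of 4 knockout and 0 of 3 wild-type libraries. The BTB and leucine-zipper gene Bach1 was called in 1 of 4 knockout and 2 of 3 wild-type libraries, and Bach2 at no end, although its locus held 4 ± 3.37 peaks per knockout and 4 ± 2 per wild-type library (SD, n = 4 and 3). Of 9 corepressors and partners of these factors, 3 were called, the histone deacetylase genes Hdac2 and Hdac3 and the ubiquitin ligase gene Cul3. Hdac2 was called in 2 of 4 knockout and 1 of 3 wild-type libraries, Hdac3 in 1 of 4 knockout and 0 of 3 wild-type, and Cul3 in 1 of 4 knockout and 1 of 3 wild-type. By any library, 30% of Zbtb genes were called, beside 30.5% of 59 Klhl, Kbtbd and Btbd genes, which carry a BTB domain without these zinc fingers, and 43.9% of 367 Zfp genes. None of these genes passed the adjusted test, which 0 of 21887 genes passed, a result set by the 4 against 3 libraries.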

How the data were processed

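ATAC-seq libraries of 4 knockout and 3 wild-type samples were grouped by the genotype in the labels. Per the labels' protocols, a Nextera kit was used. The submitters' processing notes name MACS2, deepTools 3.3.0, Bowtie2 2.3.5.1, SAMtools 1.9, FastQC 0.11.8 and CASAVA 1.9, with build GRCm38. Settings, and whether reads were shifted for the transposase, are not given in these sources. The authors called broad peaks per library. They deposited for each peak a fold enrichment, which is a ratio over background, a −log10 p, a −log10 q and a score, which was not used. The smallest deposited −log10 q was 1.30 to 1.32. These values belong to their own list and were used within it, to rank, filter or describe peaks. No read counts were used here, so depth and counting error are unknown.

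Peaks that overlapped by 1 bp or more formed a region, called wherever a library had a peak in it. Gene spans came from RefSeq (GRCm38.p6), with coordinates counted from 1. Calls were compared by two-sided Fisher's exact tests over all genes or regions with Benjamini-Hochberg adjustment, and peaks of a locus by two-sided exact permutation tests over 35 splits. Counts over members got no p. Functions were tested on simulated data. Python 3.11.15, pandas 2.3.3, NumPy 2.4.6 and SciPy 1.17.1 were used.

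Members, role lists and motifs were chosen with earlier results of these data known. Named were Zbtb18, Zbtb20, members called at an end in at least 4 libraries, up to 8 with the largest difference in end calls, up to 8 with the most locus peaks, and those with a region called in at least 6 libraries or separated by genotype. Zbtb41's locus pattern was singled out after its values were seen. Alternatives changed the window, the flank, the q minimum, the list length, the merging, the coverage, the libraries and the use of both gene ends.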

Additional observations from a re-analysis of the deposited data

Results flagged for a closer look

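For 6 of 21 values tested over the 4 knockout libraries, 1 library stood apart from the other 3, with a gap to the nearest of them equal to the whole range (ratio 1). Chance flags about 1 in 20 such groups, and counts this small reach the ratio easily when 3 libraries tie. The locus peaks in knockout libraries 1 to 4 were 1, 0, 1 and 1 at Zbtb5, 0, 0, 0 and 1 at Zbtb10 and 2, 0, 0 and 0 at Zbtb21. They were 0, 0, 0 and 2 at Zbtb33, 2, 1, 1 and 1 at Zbtb41 and 1, 1, 1 and 3 at Zbtb48. Knockout library 4, with the longest list, stood apart at 3 of the 6, knockout library 1 at 2 and knockout library 2 at 1, and the part of list length in these values was not tested.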

How the results depend on the processing

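Differences are knockout minus wild-type. The single-locus tests gave exact permutation or sign-flip p from 0.267 to 0.70 for Zbtb20 and from 0.30 to 1 for Zbtb18 over the alternatives. Many of these could not pass 0.05: the smallest possible p is 0.10 with 3 against 3 libraries, 0.0667 with 4 against 2 and 0.25 with 3 sign flips, so these p-values say nothing about stability. The direction at Zbtb20 was positive in all 12 alternatives. The replicate numbers showed no clear pairing of the libraries. Across 25623 regions, deviations from the genotype means correlated at 0.00123, 0.0715 and 0.0758 for numbers 1, 2 and 3. Libraries of different numbers correlated at −0.103 to 0.0850. For knockout libraries 2 and 3 the same number gave the highest value, and whether the numbers pair libraries was not tested. With the replicate block, within these numbers, the differences were 1.33 peaks at Zbtb20 (exact sign-flip p = 0.50), −1 at Zbtb18 (exact p = 0.50), 0.667 members at an end, −2 locus peaks and 0.0679 percentage points of the list. With equal lists of 3366 peaks the differences were 0.333 members in place of 2.08, 1.42 locus peaks in place of 7.5 and 0.0421 points in place of 0.0680. With a −log10 q of at least 5 they were 0.0833 members and 1.08 locus peaks. Leaving out single libraries gave 0.667 to 3 members, −2 to 12.3 locus peaks, 0.0109 to 0.109 points, 1.25 to 3.75 Zbtb20 peaks and −1 to 0 Zbtb18 peaks. As a percent of the list, a measure chosen after seeing the data, the Zbtb20 difference was 0.0367 points, 0.0371 with equal lists, 8.02e-05 with a −log10 q of at least 5 and 0.0198 to 0.0482 without single libraries. Its exact permutation p ran from 0.10, the smallest possible there, to 0.943. Without Zbtb20, also chosen after seeing the data, the differences were 5.08 locus peaks and 0.0314 points. The shares of the neural list without single knockout libraries were chosen after seeing the data too. With a −log10 q of at least 5, the share differed by −0.0712 points, 0 members were called at an end in all libraries, 0 regions were separated and 0 recurred. Equal lists left 0 separated regions and 1 recurrent region, and a coverage of 50% left 0 and 2. Spans without flanks left 3 recurrent regions in place of 6. With the listed start only, 0 members were called in all libraries, and a 2.5 kb window separated 1 member, Zbtb41. Leaving out single libraries gave 1 to 2 separated regions, with 2 without knockout library 2 or 3, 6 to 8 recurrent regions (called in at least 5 of the 6 libraries left), 1 member called in all and 0 separated members. The cause of these changes was not tested, except that stricter settings keep fewer peaks.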
